A study of Mus musculus with 24 samples.

Results

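The genes described here are 40 mouse genes of the cell cycle, 17 that serve DNA replication and 23 that serve mitosis, out of 52178 genes in the count table. They were taken from the table by symbol, and the rule set no threshold on a measured value, though the lists were drawn up with earlier results of these data known. The replication genes were Pcna, Mcm2, Mcm3, Mcm4, Mcm5, Mcm6, Mcm7, Rrm1, Rrm2, Tyms, Cdc45, Cdc6, Cdt1, Gins2, E2f1, Ccne1 and Ccne2. The mitosis genes were Mki67, Top2a, Ccna2, Ccnb1, Ccnb2, Cdk1, Cdc20, Bub1, Bub1b, Plk1, Aurka, Aurkb, Birc5, Cenpa, Cenpe, Cenpf, Kif11, Kif20a, Kif23, Tpx2, Nusap1, Ube2c and Foxm1. All 40 passed the filter on low counts and were tested, and none was at 0 in any library.

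RNA was sequenced from cartilage explants of C57/BL6J mice, with 4 libraries in each of 6 groups. Hip caps are the femoral heads of male mice aged 4 weeks, both heads of 1 mouse pooled per library, and they served as the model of articular cartilage. Metatarsals are whole rudiments of embryos at embryonic day 15, 6 bones pooled per library, and they served as the model of growth plate cartilage. Each explant was cultured for 24 hours, held for 1 hour in a water-filled vessel at 0 MPa (control), 5 MPa or 50 MPa of hydrostatic pressure, and cultured for a further 24 hours, so every library, controls included, had 48 hours in culture. Tissue, age and culture medium changed together, because hip caps were grown in DMEM with GlutaMAX and metatarsals in alpha-MEM with albumin, beta-glycerophosphate and ascorbate, and they cannot be told apart. Whether the bones of a metatarsal library came from 1 embryo or litter is not given in the sources used here, so the p-values measure the spread between these libraries. Libraries are named by tissue, pressure and replicate: HC, H5 and H50 for hip caps, MC, M5 and M50 for metatarsals (H53 is the third hip cap library at 5 MPa).

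A dividing cell copies its DNA in S phase and separates the copies in mitosis. Before S phase the MCM helicase is loaded onto replication origins, a step that Cdc6 and Cdt1 carry out, and E2F transcription factors turn on most of the genes involved. Mitotic genes come later, in G2, and their promoters often hold CCAAT boxes together with a cell cycle homology region (CHR), to which the DREAM and MuvB complexes bind. Growth plate cartilage lengthens bone through columns of dividing chondrocytes, while division in articular cartilage becomes rare once growth ends.

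Library totals ran from 4185241 (MC1) to 25104240 (H54) counts. The lowest count of any of the 40 genes was 2, and 8 genes had fewer than 10 counts in at least 1 library. The study left out HC4 and H502 as outliers, so the tests use 22 libraries, 10 from hip caps and 12 from metatarsals, and HC4 and H502 are given beside them where they matter. Values are given as CPM, counts scaled to a common library size after TMM normalization. As read from the study's clustering figure, the hip cap control and 50 MPa libraries in use were sequenced in run 1 and the 5 MPa libraries in run 2, and by the labels the 50 MPa libraries and HC3 were unstranded. Run and library type entered the fit as batch terms, so a fitted log2 fold change can differ from the ratio of the means.

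The tissue labels were checked against lists of marker genes. All 13 chondrocyte markers were higher in hip caps than in metatarsals at every pressure, and summed to between 23591 and 84644 CPM in the 10 hip caps and between 2197 and 5688 CPM in the metatarsals. Skeletal muscle markers were present in metatarsals, at 454 to 2572 CPM in sum, and near their floor in hip caps, at 8.70 to 41.8 CPM. Fibroblast markers summed to 4836 to 7554 CPM in metatarsals and 1728 to 7034 CPM in hip caps. Hip caps held more RNA of hypertrophic chondrocyte (6873 to 17687 against 61.2 to 164 CPM), osteoblast (608 to 2139 against 75.6 to 252 CPM) and osteoclast markers (131 to 807 against 24.5 to 48.3 CPM). The metatarsal libraries therefore held muscle and fibroblast RNA as well as cartilage RNA, and hip caps were mixed too. In bulk tissue fewer dividing cells and less RNA per dividing cell cannot be told apart.

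Promoter sequences, which no count entered, set the replication and mitosis genes apart in the motifs they hold. RefSeq promoters (GRCm38.p6), from 250 bases before to 50 bases after the start of transcription, could be matched to 32 of the 40 genes, 14 of replication and 18 of mitosis. They were searched on both strands for E2F words (TTTCCCGC, TTTCGCGC, TTTGCCGC and TTTGGCGC), for CHR words (TTTGAA and TTCGAA) and for CCAAT. Matches of the E2F words can overlap each other on opposite strands, as they do in Mcm5 and Mcm6. Each of the 32 genes was counted once, with a match if any of its promoters held the word (Mcm7 had more than 1 promoter). The share of all promoters was counted per promoter, so the measures are not quite alike. An E2F word stood in 6 of 14 replication promoters (42.9%), in 1 of 18 mitosis promoters (5.56%) and in 2.26% of the 32851 promoters of the table. A CHR word stood in 3 replication promoters (21.4%) and 14 mitosis promoters (77.8%), against 19.2% of all promoters. CCAAT was found in 9 (64.3%) and 16 (88.9%), against 37.4%. Within the 250 bases before the start alone, the CHR share of the mitosis promoters was 44.4%, since 6 of the 14 held the word only after the start, against 17.1% of all promoters. The E2F share of the replication promoters was then 28.6% (4 of 14), against 1.86%.

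**Figure D1:**
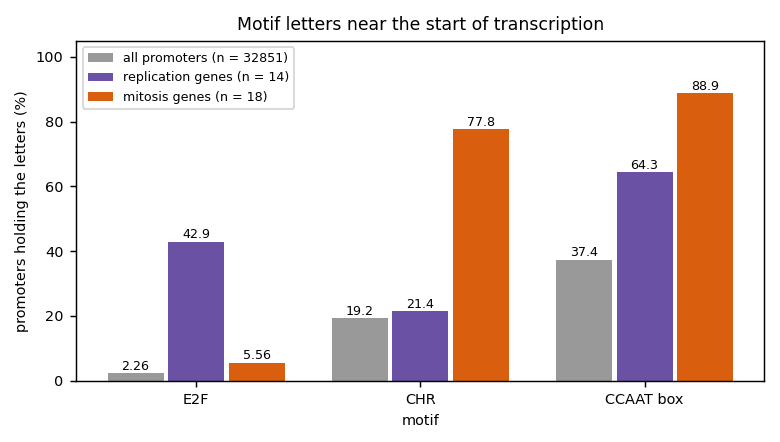
Share of promoters (vertical axis, %) that hold the letters of each motif (horizontal axis) among 14 replication genes, 18 mitosis genes and all 32851 promoters, from 250 bases before to 50 bases after the start. E2F words were found for 42.9% of replication genes and CHR words for 77.8% of mitosis genes, against 2.26% and 19.2% of all promoters. A gene counted if any of its promoters held the word.

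Stretches of 2 replication and 4 mitosis promoters are printed as examples that hold these words, and 5 of the 6 genes passed the threshold in a comparison that follows. They do not cover every arrangement. Cdc6 and Cdt1 hold E2F words alone, Pcna and Rrm1 CCAAT alone, and E2f1, Ccne1, Tyms, Birc5 and Nusap1 none of the words. Each runs 5′ to 3′ on the strand of the gene, with the motif letters in capitals (ATTGG and TTCAAA are CCAAT and TTTGAA read from the other strand). Mcm5 (chr8:75109344-75109531, plus strand) and Mcm6 (chr1:128359703-128359827, minus strand), both subunits of the helicase, hold E2F words and CCAAT boxes and no CHR word. Bub1 (chr2:127831828-127831939, minus strand), Kif11 (chr19:37376325-37376380, plus strand) and Top2a (chr11:99024195-99024428, minus strand) hold CHR words and CCAAT boxes and no E2F word. Cdk1 (chr10:69352910-69353132, minus strand), the kinase that drives entry into mitosis, is the 1 mitosis gene with words of all 3 kinds.
Mcm5: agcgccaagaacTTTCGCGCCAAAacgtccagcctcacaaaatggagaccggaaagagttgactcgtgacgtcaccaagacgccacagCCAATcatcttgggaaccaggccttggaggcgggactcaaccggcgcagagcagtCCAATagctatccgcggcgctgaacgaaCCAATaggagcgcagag
Mcm6: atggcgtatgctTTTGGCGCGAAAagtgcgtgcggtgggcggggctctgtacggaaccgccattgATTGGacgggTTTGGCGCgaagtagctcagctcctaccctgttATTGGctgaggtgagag
Bub1: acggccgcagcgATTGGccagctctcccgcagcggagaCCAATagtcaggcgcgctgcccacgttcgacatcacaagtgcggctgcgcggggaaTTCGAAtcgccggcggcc
Kif11: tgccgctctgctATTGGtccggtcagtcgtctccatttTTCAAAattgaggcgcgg
Top2a: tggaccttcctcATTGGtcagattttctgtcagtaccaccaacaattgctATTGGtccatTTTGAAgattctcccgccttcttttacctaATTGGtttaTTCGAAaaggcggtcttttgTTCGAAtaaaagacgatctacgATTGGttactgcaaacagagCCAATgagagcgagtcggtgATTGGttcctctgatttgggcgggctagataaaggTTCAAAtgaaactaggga
Cdk1: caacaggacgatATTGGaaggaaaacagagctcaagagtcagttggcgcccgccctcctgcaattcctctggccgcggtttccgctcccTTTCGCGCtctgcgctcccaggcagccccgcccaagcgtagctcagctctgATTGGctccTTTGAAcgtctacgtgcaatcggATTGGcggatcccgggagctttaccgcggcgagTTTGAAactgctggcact
A match of letters is a description and not evidence that a factor binds there.

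Levels can be compared between genes only per length of transcript. In hip cap controls Mcm6 and Pcna led the replication genes at 19.9 ± 1.58 and 14.4 ± 4.10 CPM per kilobase (SD, n = 3), and in metatarsal controls the order of these leading genes was the reverse, Pcna at 13.1 ± 1.72 and Mcm6 at 10.6 ± 0.424 (n = 4). In hip caps the spread of Pcna reaches Mcm6, so their order there is not resolved. Ccne1 and Cdc6 stood lowest in hip cap controls, at 0.975 ± 0.450 and 1.09 ± 0.241 CPM per kilobase, and they do not differ beyond their spread. Of the mitosis genes, Top2a was highest per kilobase in hip cap controls at 10.8 ± 1.06, and Birc5 in metatarsal controls at 6.65 ± 0.825, while Bub1 was lowest in both, at 1.12 ± 0.437 and 0.851 ± 0.246. These ranks are not resolved, since Birc5 was at 9.71 ± 5.97 and Cdk1 at 1.18 ± 0.537 in hip cap controls, and Cenpa at 6.31 ± 1.13 and Aurka at 1.09 ± 0.479 in metatarsal controls.

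Summed over the 17 replication genes, levels were even in metatarsals and uneven in hip caps. The sum was 230, 222, 230 and 227 CPM in the metatarsal controls, 219 to 249 CPM at 5 MPa, and 246, 241, 231 and 349 CPM at 50 MPa, the highest being M504. In hip caps it was 232, 279 and 256 CPM in the controls, 276, 320, 472 and 228 CPM at 5 MPa, and 291, 335 and 277 CPM at 50 MPa. H53 stood far above every other hip cap in use, and the control HC4, which the study left out, had 477 CPM.

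The 23 mitosis genes spread further. Their sum was 314, 344 and 307 CPM in hip cap controls and 180, 167, 248 and 234 CPM in metatarsal controls, so the control groups did not overlap. At 5 MPa it was 302, 383, 769 and 222 CPM in hip caps and 183 to 250 CPM in metatarsals. At 50 MPa it was 311, 492 and 147 CPM in hip caps, which held both the second highest and the lowest sum of all hip caps in use, and 209 to 312 CPM in metatarsals. HC4 had 542 and H502 had 265 CPM. The ratio of the mitosis sum to the replication sum ran from 0.53 (H504) to 1.63 (H53) in the 10 hip caps and from 0.75 to 1.08 in the 12 metatarsals. In H504, then, replication genes stayed at the level of other hip caps while mitosis genes were low, and 15 of the 23 mitosis genes had their lowest hip cap value in that library.

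**Figure D2:**
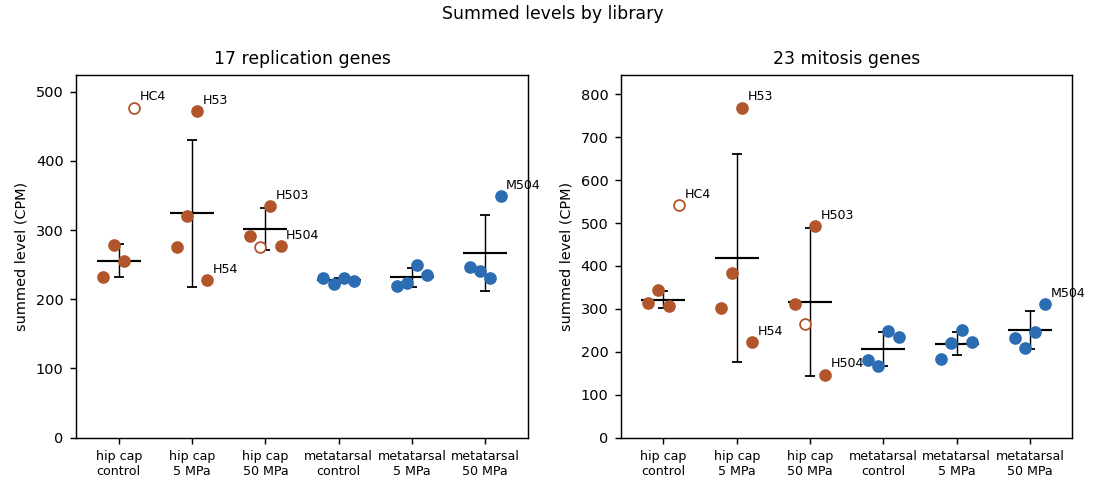
Summed level (vertical axis, CPM) of the 17 replication genes and of the 23 mitosis genes in each library, by group, with the mean and SD over the libraries in use and open symbols for the libraries the study left out. H53 (472 and 769 CPM) stands above the other hip caps at 5 MPa in both panels, and M504 (349 CPM) above the other metatarsals in the replication panel.

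The first comparison set hip caps against metatarsals without pressure, to describe the difference between the tissues. Of all 21283 genes tested, 14.1% were higher and 15.9% lower in the hip cap controls (adjusted p at most 0.05, edgeR's quasi-likelihood test with Benjamini-Hochberg adjustment over all genes). Among the replication genes 1 was higher and 3 were lower, and the median log2 fold change was -0.02, against -0.08 over all genes. Among the mitosis genes 0 of 23 passed the threshold, 0 also at an unadjusted p under 0.05 and 0 with DESeq2, and the median was 0.21. Without MC1, the 1 metatarsal control of the hip caps' run, the replication genes that passed were 0 higher and 1 lower (Mcm7), and without M504 they were 1 higher (Mcm6) and 0 lower.

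In the MCM helicase, the ring that unwinds DNA at the fork, the subunits did not move together. Mcm6 was at 52.7, 59.7 and 61.4 CPM in hip cap controls and at 32.2, 29.5, 31.8 and 30.4 CPM in metatarsal controls. The groups were far apart, and the log2 fold change was 0.63 (SE 0.19, adjusted p = 0.0168, edgeR). Mcm7 was at 16.3, 23.7 and 15.1 CPM in hip caps and 24.1, 28.7, 25.7 and 25.4 CPM in metatarsals. Here the hip caps were the lower group, with HC2 just below the lowest metatarsal (log2 fold change -0.70, SE 0.25, adjusted p = 0.0391, edgeR). Mcm5 was at 16.0, 12.9 and 20.2 CPM against 5.93, 8.45, 7.38 and 11.1 CPM, groups that did not overlap, but its log2 fold change of 0.89 (SE 0.42) had an adjusted p of 0.121 (edgeR). For Mcm2, Mcm3 and Mcm4 the groups overlapped, with log2 fold changes between -0.30 and 0.15.

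Tyms, which makes thymidylate for DNA synthesis, was at 6.52, 16.5 and 11 CPM in hip cap controls and at 22.6, 17.2, 19.5 and 21.1 CPM in metatarsal controls. All hip caps in use were below all metatarsals (log2 fold change -0.80, SE 0.29, adjusted p = 0.0451, edgeR). HC4, at 31.2 CPM, was above every metatarsal control, and with all 24 libraries the log2 fold change of Tyms was -0.13. The ribonucleotide reductase genes, which supply deoxyribonucleotides, did not pass the threshold, at 0.05 for Rrm1 and 0.48 for Rrm2 on the log2 scale. Nor did the clamp gene Pcna (-0.26), or Cdc45, Cdc6, Cdt1 and Gins2, which load and start the helicase (-0.68 to 0.21).

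E2f1, an activating transcription factor of S-phase genes, had the most negative log2 fold change of the replication genes that passed. It was at 6.79, 7.16 and 7.34 CPM in hip cap controls and at 13, 13.2, 14.1 and 12.9 CPM in metatarsal controls. Each group was tight and the hip caps lay near 7 CPM, 1.99-fold below the metatarsals in the fit (log2 fold change -0.99, SE 0.29, adjusted p = 0.0118, edgeR). The cyclin E genes, whose proteins activate Cdk2 at the start of S phase, did not pass, at -1.08 (SE 0.52) for Ccne1 and -0.22 (SE 0.43) for Ccne2.

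Although no mitosis gene passed the threshold between the controls, 7 of the 23 had groups that did not overlap, all of them higher in hip caps, while over all genes 19.6% were higher without overlap and 22.8% lower. These were Mki67, Top2a, Ccna2, Bub1b, Kif11, Kif20a and Tpx2. Mki67, which coats chromosomes in mitosis and marks cycling cells, was at 94.0, 102 and 80.2 CPM in hip caps and at 37.1, 43.2, 58.6 and 59.0 CPM in metatarsals. Top2a, the topoisomerase that untangles sister chromatids, was at 51.9, 62.5 and 54.4 CPM against 21.6, 21.5, 31.3 and 35.4 CPM. Both had fitted log2 fold changes near 1 with wide errors, 1.02 (SE 0.64, adjusted p = 0.255) and 1.01 (SE 0.50, adjusted p = 0.140, edgeR). Of the 17 replication genes, 4 were higher and 5 lower without overlap. With all 24 libraries, where 11.6% of all genes were higher, Mcm5, Mcm6, Rrm2, Top2a, Bub1b and Kif20a were higher and E2f1 lower.

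**Figure D3:**
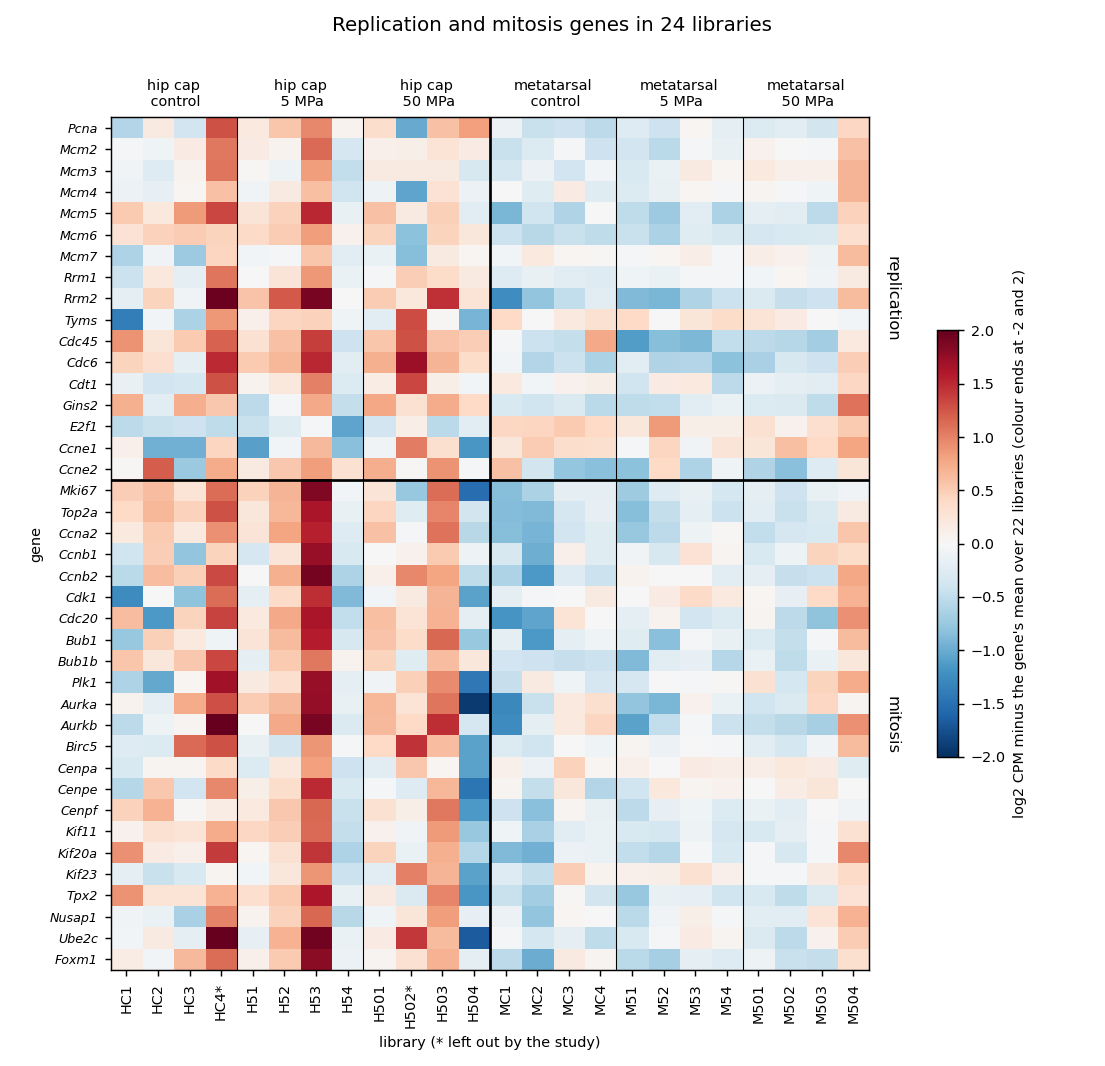
Levels of the 40 genes (rows) in the 24 libraries (columns, by group) as log2 CPM minus the mean of each gene over the 22 libraries in use, with the colour scale ending at -2 and 2. H53 and the left-out control HC4 are high in most genes of both lists, H504 is low in most mitosis genes, and E2f1 is lower in hip caps than in metatarsals.

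At 5 MPa the tissues differed in more of these genes. Hip caps exceeded metatarsals in 18.8% of all genes and were below them in 19.1%, and of the replication genes 7 were higher (41.2%) and 1 lower. Of the mitosis genes 10 were higher (43.5%) and 0 lower, and all 23 log2 fold changes were positive. The median log2 fold change was 0.44 over the replication genes and 0.86 over the mitosis genes, against -0.08 over all genes. All 8 libraries of this comparison were stranded and from run 2, and with the libraries of run 2 alone 9 replication and 14 mitosis genes were higher, where 25.5% of all genes were.

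Among the replication genes at 5 MPa, Mcm6 was at 56.6, 61.7, 77.3 and 46.1 CPM in hip caps and 31.9, 28.1, 36.5 and 34.7 CPM in metatarsals. The groups did not overlap, and the log2 fold change was 0.88 (SE 0.13, adjusted p = 1.74e-05, edgeR). Mcm5 was at 13.3, 15.4, 31.7 and 10.1 CPM against 7.90, 6.76, 9.54 and 7.23 CPM, with H53 far above the other hip caps and H54 close to the highest metatarsal (1.17, SE 0.27, adjusted p = 0.00189). Rrm2, the regulated subunit of ribonucleotide reductase, had the largest difference, at 11.4, 18.1, 28.7 and 7.72 CPM against 4.18, 4.11, 5.06 and 5.74 CPM. Its groups did not overlap either, and it was 3.45-fold higher in hip caps (1.79, SE 0.36, adjusted p = 5.23e-04, edgeR).

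Pcna, the clamp that holds polymerases on DNA, was at 29.2, 37.5, 49.7 and 26.9 CPM in hip caps and 21.5, 19.2, 26.2 and 22.3 CPM in metatarsals at 5 MPa. The lowest hip cap lay just above the highest metatarsal (log2 fold change 0.68, SE 0.18, adjusted p = 0.00462, edgeR). Cdc45, part of the active helicase, was at 4.35, 5.27, 9.12 and 2.64 CPM against 1.62, 1.95, 1.88 and 2.51 CPM (1.42, SE 0.33, adjusted p = 0.00180). Cdc6 (1.29, SE 0.29) and Mcm2 (0.63, SE 0.22) also passed although their groups overlapped, while Mcm3, Mcm4, Mcm7, Rrm1, Tyms, Cdt1, Gins2, Ccne1 and Ccne2 did not pass. E2f1 was again lower, at 7.20, 8.23, 9.53 and 4.69 CPM against 11.4, 17.7, 10.6 and 10.6 CPM (-0.76, SE 0.19, adjusted p = 0.00336, edgeR).

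Of the mitosis genes at 5 MPa, Mki67 was at 91.5, 107, 240 and 64.1 CPM in hip caps and 40.6, 55.6, 60.2 and 52.5 CPM in metatarsals. Top2a was at 46.3, 62.8, 122 and 35.7 CPM against 21.8, 28.5, 34.9 and 29.2 CPM, and Foxm1, the transcription factor of mitotic genes, at 9.82, 13.1, 31.7 and 8.40 CPM against 6.29, 5.78, 7.95 and 7.61 CPM. In these genes the groups did not overlap, H53 was the highest by far and H54 the lowest hip cap. The log2 fold changes were 1.27 (SE 0.43, adjusted p = 0.0297), 1.22 (SE 0.33, adjusted p = 0.00765) and 1.19 (SE 0.34, adjusted p = 0.00948, edgeR). Over all genes 19.2% were higher without overlap, as were 5 replication and 3 mitosis genes.

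The other mitosis genes that passed at 5 MPa covered several steps. They were the cyclin gene Ccna2 (log2 fold change 1.05), the spindle checkpoint kinases Bub1 (0.99) and Bub1b (0.89), the mitotic kinases Aurka (1.24) and Aurkb (1.31), the motor Kif11 (0.77), which pushes spindle poles apart, and Tpx2 (1.09), which activates Aurka. The groups overlapped in each of them. Of the genes of the centromere and the chromosomal passenger complex, Birc5, Cenpa, Cenpe and Cenpf, 0 of 4 passed, with log2 fold changes of 0.07 to 0.73. The core of the mitotic switch did not pass either, with 0.27 (SE 0.39) for Cdk1, 0.62 (SE 0.38) for Ccnb1 and 0.86 (SE 0.40) for Ccnb2.

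A single library weighed on these counts. H53 was above the mean of the other 3 hip caps at 5 MPa in 17 of 17 replication genes, by a median ratio of 1.99, and in 23 of 23 mitosis genes, by a median of 2.60. Without H53, 6 replication genes (Pcna, Mcm5, Mcm6, Rrm2, Cdc45 and Cdc6) and 3 mitosis genes (Top2a, Bub1b and Foxm1) stayed higher, where 19.9% of all genes were, with medians of 0.19 and 0.48. Without H54, 11 and 17 were higher, where 20.6% of all genes were. When libraries were scaled by their totals alone, without TMM, the median over all genes fell to -0.70, 5.91% of all genes were higher, and of the 40 genes only Rrm2 was. The medians of the lists relative to all genes, 0.51 and 0.94 on that scale, were close to the 0.52 and 0.93 with TMM.

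**Figure D4:**
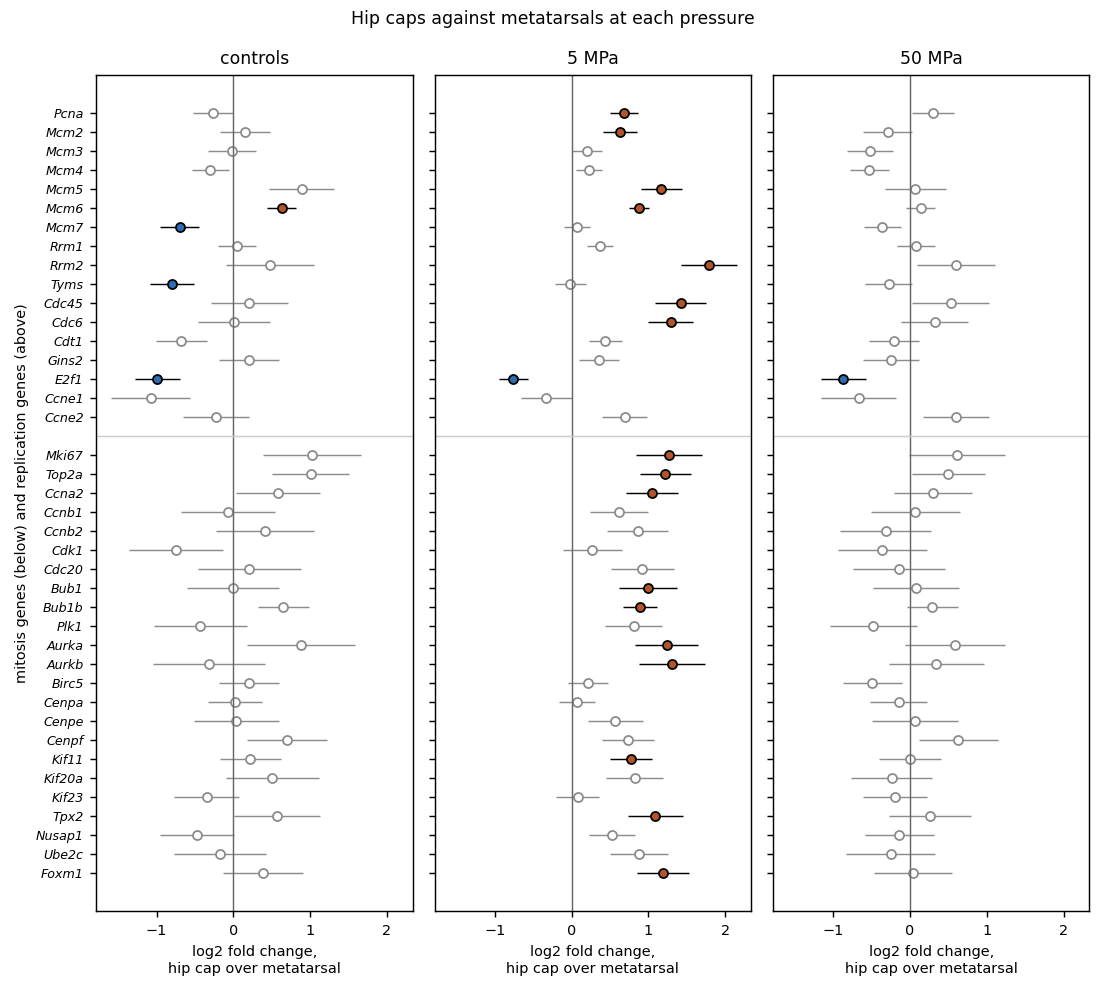
Log2 fold change of hip caps over metatarsals (horizontal axis) for each of the 40 genes (rows, mitosis below and replication above) in the controls, at 5 MPa and at 50 MPa, with bars of 1 SE and filled points for an adjusted p of at most 0.05. At 5 MPa 17 genes pass to the right of 0 and E2f1 to the left, and E2f1 is the 1 gene that passes in all 3 panels.

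H53 also carried more RNA of other cell types. Its macrophage markers summed to 205 CPM, against 25.3 to 94.2 CPM in the other 9 hip caps, and 7 of 7 were above all of them. Neutrophil and granulocyte precursor markers summed to 189 CPM against 4.95 to 49.9 CPM (8 of 8 above), endothelial markers to 250 CPM against 48.7 to 125 CPM (4 of 5), B-cell precursor markers to 12.1 CPM against 0.272 to 3.05 CPM (5 of 5) and fibroblast markers to 7034 CPM against 1728 to 3637 CPM (4 of 7). Its chondrocyte markers were the lowest, 23591 CPM against 35229 to 84644 CPM, and none of these markers was at 0. HC4 resembled H53 in part, with 291 CPM of macrophage and 10080 CPM of chondrocyte markers. H504, lowest in mitosis genes and smallest in scaled library size, had the lowest neutrophil sum, with 5 of 8 markers at 0. Other libraries did not follow that order. The macrophage sum of H504 (80.2 CPM) was above the median of the others (60.1 CPM), H503, second highest in mitosis genes, had 78.3 CPM of macrophage and 15.3 CPM of neutrophil markers, and HC3, with 307 CPM of mitosis genes, had the second highest neutrophil sum (49.9 CPM). Over the whole groups at 5 MPa the macrophage sum was 46.6 to 205 CPM in hip caps and 43.8 to 64.2 CPM in metatarsals, and the neutrophil sum 9.28 to 189 CPM and 1.30 to 2.87 CPM. The part of these cells in the levels of replication and mitosis genes was not tested.

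**Figure D5:**
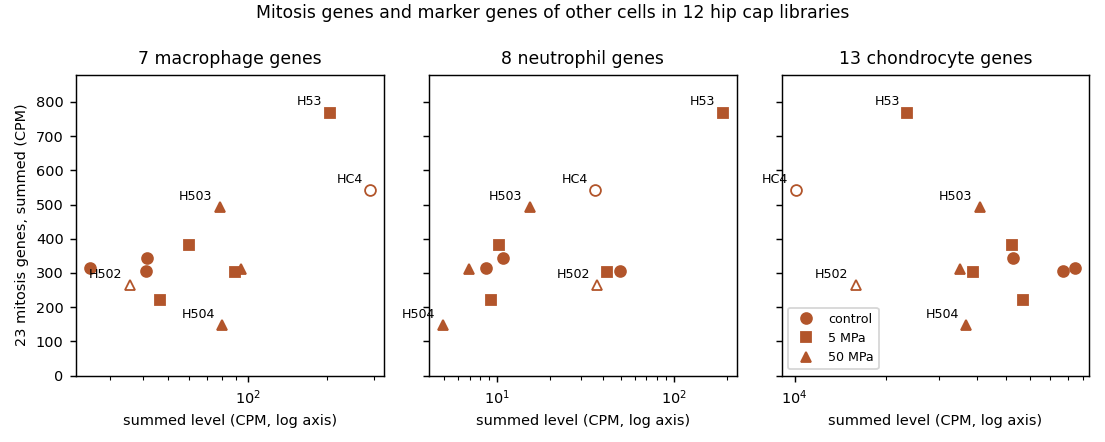
Summed level of the 23 mitosis genes (vertical axis, CPM) against the summed level of macrophage, neutrophil and chondrocyte markers (horizontal log axes, CPM) in the 12 hip cap libraries, with open symbols for the libraries the study left out. H53 is highest in mitosis genes (769 CPM) and in neutrophil markers (189 CPM), and HC4 and H53 are high in macrophage markers (291 and 205 CPM).

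At 50 MPa few of these genes differed between the tissues in the fit. All hip caps in use at 50 MPa were unstranded and of run 1, and all metatarsals but M504 were stranded and of run 2. Tissue is therefore separated from run and library type there only through the batch terms. Without that adjustment, the replication sum was 301 ± 30.5 CPM in hip caps and 267 ± 55.4 CPM in metatarsals (SD). The mitosis sum was 317 ± 172 and 250 ± 43.9 CPM. Hip caps were higher in 10.1% of all genes and lower in 9.58%, and of the 40 genes only E2f1 passed. It was at 7.49, 6.72 and 8.36 CPM in hip caps and 12.1, 10.4, 12.4 and 14.0 CPM in metatarsals, again with no overlap (log2 fold change -0.87, SE 0.29, adjusted p = 0.0381, edgeR). The median log2 fold change was -0.21 over the replication genes and 0.04 over the mitosis genes, against -0.01 over all genes. These medians turned on M504, an unstranded metatarsal of run 1 that was highest of the 12 metatarsals in 13 of 17 replication and 17 of 23 mitosis genes. Without it the medians were 0.42 and 0.56 and no member passed (E2f1 -0.73, adjusted p = 0.502, edgeR). M504 had 454 CPM of muscle markers, the lowest of the metatarsals, where the others had 751 to 2572 CPM. Without the batch terms, Pcna (0.66) and Mcm6 (0.50) passed as higher.

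E2f1 was thus the 1 gene of the 40 that passed in all 3 tissue comparisons, and Mcm6 the 1 that was higher in 2 of them. At 5 MPa E2f1 stayed lower under all 13 alternative settings and in all 22 fits that left out a library, with log2 fold changes of -1.38 to -0.69 and -0.84 to -0.48. In the controls it passed under 12 of 14 settings, but not with the controls of run 1 alone (-0.87, adjusted p = 0.271, with 1 metatarsal) or with stranded libraries alone (-0.92, adjusted p = 0.0882, edgeR), and in 19 of 22 fits that left out a library. At 50 MPa E2f1 passed under 9 settings and failed under 4. Of the fits that left out a library, it passed there in 18 and failed in 4. Mcm6 at 5 MPa passed under 12 of 13 settings, the exception being library sizes alone, and in the controls that scaling turned its sign (-0.27).

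The second question was what pressure changed within a tissue. In hip caps at 5 MPa 0.0188% of all genes passed against the controls, 0 of the 40 among them. Every replication gene had a positive log2 fold change and so had 21 of the 23 mitosis genes, with medians of 0.55 and 0.61 against 0.01 over all genes. Markers of other cell types moved as well, with 0 past the threshold. All 7 macrophage markers (median 1.29) and all 7 fibroblast markers (0.49) were positive and all 13 chondrocyte markers negative (-0.75), and the macrophage sum was 25.3 to 41.4 CPM in controls and 46.6 to 205 CPM at 5 MPa. Their part in the result was not tested. At an unadjusted p under 0.05 stood 6 replication and 2 mitosis genes, and with DESeq2 1 passed, Pcna. The shares of all genes at that p and with DESeq2 are not given here, so these counts are not set against a background. The paper, with DESeq2, reported far more changed genes in this comparison than passed in this fit. Pcna came closest, at 17.1, 29.0 and 19.7 CPM in controls and 29.2, 37.5, 49.7 and 26.9 CPM at 5 MPa, groups that overlap through HC2 and H54. Its log2 fold change was 1.24 (SE 0.30, adjusted p = 0.120, edgeR). Next were Ccne2 (1.42, adjusted p = 0.194), Nusap1, which bundles spindle microtubules (1.17, adjusted p = 0.308), and Ube2c, the ubiquitin-conjugating enzyme of the anaphase-promoting complex (1.43, adjusted p = 0.324, edgeR).

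These values depended on which hip caps were counted. Without HC2, the highest control in Pcna, 4 replication genes passed at 5 MPa: Pcna (1.49), Ccne2 (1.86), Mcm7 (1.02) and Tyms (1.18). The share of all genes that passed in that fit is not given here. With HC4, at 61.6 CPM of Pcna, and H502 put back, the log2 fold change of Pcna was 0.04 and the medians were -0.11 and 0.07. Without H53 the medians were 0.32 and 0.34, without M504 0.29 and 0.31, and without MC1 0.84 and 1.18. All hip cap controls in use were of run 1 and all hip caps at 5 MPa of run 2, so run and pressure are separated only through MC1 and M504 among the metatarsals. With stranded hip caps alone and no batch term the log2 fold change of Pcna was 0.62 (adjusted p = 0.402, edgeR).

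In hip caps at 50 MPa 5.18% of all genes passed, and 0 of the 40. At an unadjusted p under 0.05 stood 2 replication genes and 1 mitosis gene, and with DESeq2 Pcna passed. Here too the shares of all genes at that p and with DESeq2 are not given. The median log2 fold change was 0.27 over the replication genes and -0.04 over the mitosis genes. Pcna was at 32.6, 38.6 and 45.2 CPM, above all 3 controls in use, with a log2 fold change of 0.82 (SE 0.29, adjusted p = 0.0924, edgeR). H502, however, had 12.7 CPM, and with all 24 libraries the value was -0.09. Both groups in use came from run 1, and within it the log2 fold change was 0.82 (adjusted p = 0.378), while within the unstranded hip caps, with HC3 the 1 control, it was 0.98. Ccne2 had 1.07 (adjusted p = 0.186) and Birc5, a subunit of the chromosomal passenger complex, -0.82 (adjusted p = 0.202, edgeR). Mki67 at 50 MPa was at 79.6, 144 and 23.2 CPM, and its fitted change was -0.19 (SE 0.66).

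In metatarsals 0% of all genes passed at 5 MPa and 0% at 50 MPa in this fit, so it held no background of change for these genes to stand out from. The paper, with DESeq2, reported a small number of changed genes at each pressure. Counts over all genes with DESeq2 are not given here. At an unadjusted p under 0.05 there was 1 of the 40 at 5 MPa, Cdc45 (-0.81, SE 0.35), and 0 at 50 MPa, and DESeq2 called 0 of the 40 at either pressure. The medians were 0.03 and 0.09 at 5 MPa and 0.19 and 0.22 at 50 MPa, or 0.07 and 0.11 without M504. The largest rises in the fit at 50 MPa were in Ccnb1 (0.53, SE 0.42) and Kif20a (0.52, SE 0.41), neither past the threshold.

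Whether pressure acted differently in the tissues was tested as an interaction. At 5 MPa 0.0188% of all genes passed and at 50 MPa 0.132%, and of the 40 genes 0 did at either (5 and 1 at an unadjusted p under 0.05, 0 and 0 with DESeq2). At 5 MPa all 40 interaction terms were positive, the medians being 0.75 and 0.51, and Pcna (0.94, SE 0.32, adjusted p = 0.321) and Cdt1 (1.12, SE 0.40, adjusted p = 0.336, edgeR) had the smallest p. With all 24 libraries the medians were 0.11 and 0.06, without H53 0.41 and 0.13, and without M504 0.41 and 0.24. Without HC2, Pcna passed (1.22). At 50 MPa they were 0.12 and -0.22. The response of these genes to pressure was therefore not shown to differ between hip caps and metatarsals. The tissue comparisons called 18 of the 40 genes at 5 MPa and 4 in the controls, and the test of that difference for each gene is this interaction.

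In hip caps at 5 MPa the coefficient of variation had a median of 41.2% over the replication genes and 59.4% over the mitosis genes, and at 50 MPa it was 14.0% and 53.3%. In hip cap controls it was 22.6% and 26.2%. In metatarsals it was 11.5% and 24.5% in controls, 15.4% and 16.0% at 5 MPa, and 25.0% and 26.5% at 50 MPa. The mitosis genes had the higher median in all 6 groups, by little in hip cap controls and in metatarsals under either pressure, and the difference was not tested. The lowest values were those of Bub1b in metatarsal controls (2.40%), Cdc45 in hip caps at 50 MPa (2.64%) and Rrm1 in metatarsals at 5 MPa (3.03%), and the highest was that of Ccnb1 in hip caps at 5 MPa (79.7%), at 3.39, 5.13, 14.4 and 3.47 CPM.

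Further genes of the same machinery, taken from lists of 34 replication and 43 mitosis genes outside the 40, were counted in the same way. Between the controls 3 of the 34 were higher and 1 lower, and 2 of the 43 were higher and 2 lower, while at 5 MPa 11 were higher and 1 lower and 24 were higher and 0 lower. At 50 MPa it was 1 and 1, and 1 and 0. In sum H53 had 537 CPM of the 34 and 806 CPM of the 43, where the other hip caps at 5 MPa had 305 to 384 and 410 to 562 CPM. Counts of these lists without H53 are not given here. Of all genes, 14.1% were higher and 15.9% lower in the controls, 18.8% and 19.1% at 5 MPa, and 10.1% and 9.58% at 50 MPa, against 8.82% and 4.65% higher in these lists in the controls, 32.4% and 55.8% at 5 MPa, and 2.94% and 2.33% at 50 MPa. Of those that passed in the controls, the highest were Mcm8 (log2 fold change 1.21), a helicase of repair, Dut (0.84), which clears dUTP, Rpa2 (0.67), of the single-strand binding complex, Pttg1 (1.12), the securin, and Anln (1.07), a scaffold of the cleavage furrow. With library sizes alone the signs of Dut (-0.01) and Rpa2 (-0.21) turned. The lowest were Cks1b (-1.40), Pola2 (-0.82) and Hjurp (-0.53), the chaperone of Cenpa.

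Of 22 regulators of G1, 4 were higher and 6 lower between the controls, 8 and 5 at 5 MPa, and 3 and 5 at 50 MPa. These were 18.2% and 27.3% in the controls (all genes 14.1% and 15.9%), 36.4% and 22.7% at 5 MPa (18.8% and 19.1%), and 13.6% and 22.7% at 50 MPa (10.1% and 9.58%), several of them near the share of all genes. The cyclin D partner Cdk4 was at 24.2, 37.4 and 28.4 CPM in hip cap controls and 67.8, 62.2, 71.0 and 77.4 CPM in metatarsal controls (log2 fold change -1.30, SE 0.22, adjusted p = 1.66e-04, edgeR). Ccnd3 (-1.41) and the phosphatase gene Cdc25b (-1.59) were lower too, while the pocket protein genes Rbl2 (0.97) and Rbl1 (0.81) and the cyclin gene Ccnd1 (0.82) were higher. With library sizes alone the signs of Rbl1 (-0.11) and Ccnd1 (-0.09) turned. The groups of Cdk4 did not overlap.

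Of 6 genes of CDK inhibitors, which hold cells in G1, 1 was lower and 1 higher between the controls, 16.7% each way, near the 15.9% and 14.1% of all genes. Cdkn1c, an imprinted inhibitor that arrests chondrocytes as they leave the cycle, was at 29.4, 28.5 and 22 CPM in hip cap controls and 511, 566, 544 and 616 CPM in metatarsal controls. It was 21.85-fold lower in hip caps (log2 fold change -4.45, SE 0.40, adjusted p = 8.14e-08, edgeR) and stayed lower at 5 MPa (-4.62) and 50 MPa (-4.02). Cdkn2c went the other way, at 19.6, 10.2 and 19.0 CPM against 1.15, 1.39, 3.55 and 2.70 CPM (2.83, SE 0.48, adjusted p = 1.29e-04), and passed at 5 MPa (1.91) and 50 MPa (1.66) as well. Cdkn1a (-0.10), Cdkn1b (0.02), Cdkn2b (-0.29) and Cdkn2d (0.84) did not pass between the controls.

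Part of the counts of some genes cannot be assigned with certainty. In the GENCODE transcripts of GRCm38, 12 of the 40 genes share over 10% of their 31-base words with other genes: Gins2 (66.2%, with Gse1), Mcm7 (33.4%), Ccnb1 (27.8%), Cdc20 (26.7%), Kif20a (26.7%, with Cdc23), Ube2c (25.3%, with the muscle gene Tnnc2), Pcna (23.3%, with a pseudogene), Plk1 (18.7%), Ccne2 (15.6%, with Ints8), Rrm2 (12.8%), Ccna2 (12%) and Tyms (11.4%). Values of these genes are therefore uncertain, and how much of their counts the shared words affect was not measured. E2f1 (1.79%), Mcm6 (1.35%), Mcm5 (1.76%), Mki67 (1.26%) and Top2a (4.80%) share little.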

How the data were processed

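RNA was depleted of ribosomal RNA and sequenced as a stranded library, except 6 libraries that the labels give as unstranded. The paper reports low RNA integrity in its samples and proposes that the RNA was partly degraded. The part of RNA quality in the levels given here was not tested. The authors trimmed reads with Trim Galore 0.6.5, quantified transcripts with kallisto and summed them to genes with tximport, so the deposited values are estimated counts per gene, not normalized. They were rounded to whole numbers here. The submitters' processing notes name the build GRCm39 and DESeq2. Gene names, lengths and positions came from GENCODE M21 on GRCm38, and promoters from RefSeq.

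The 22 libraries the study kept were fitted together with edgeR 4.0.16 in R 4.3.3 (TMM scaling, filterByExpr with a minimum count of 10, robust quasi-likelihood test, prior count 2 for fold changes), with 6 groups, sequencing run and library type as terms. The threshold was an adjusted p of 0.05. Both tissues shared a single dispersion per gene in this fit. Estimated for each tissue apart, the median dispersion of the replication and mitosis genes was 0.144 in hip caps and 0.0281 in metatarsals. By these medians, tests within metatarsals were judged against a spread wider than their own, and tests within hip caps against a narrower one. Run was read from a colour strip in the study's clustering figure, which gave 9 and 15 libraries, while the study's methods give 17 and 7, so this term is uncertain. Fits were also run on simulated counts that held no effect of run or library type. They cannot test how run was separated from pressure. DESeq2 1.42.0, other scalings, filters and batch terms, subsets and fits without each library were the alternatives. Shares of all genes at an unadjusted p under 0.05 and under most alternatives are not given here. Counts of members there cannot be set against all genes. Depth limits precision in the shallowest libraries. The genes named under pressure were those with the smallest p in each list. The members and lists were chosen with earlier results of these data known.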

Additional observations from a re-analysis of the deposited data

Results flagged for a closer look

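Sets of 4 values, each of 1 gene or list sum in 1 group of 4 libraries, were checked for a far library. Chance alone passes Dixon's critical value in about 5 percent of single sets, but sets from the same libraries are not independent. Of 168 sets, 19 held a library whose gap to the others passed that value. Of these, 14 were M504 among the metatarsals at 50 MPa. It had 34.3 CPM of Pcna (the others 19.9 to 22.2), 24.1 of Mcm2 (15.8 to 17), 24.2 of Mcm3 (16.2 to 17.3), 35.4 of Mcm4 (21.0 to 23.1), 54.8 of Mcm6 (34.4 to 35.3), 12 of Rrm2 (5.61 to 6.28), 4.04 of Cdc45 (2.16 to 2.45), 11.6 of Cdt1 (7.45 to 8.0) and 10.5 of Gins2 (3.49 to 4.10). In mitosis genes it had 14.6 CPM of Ccna2 (7.07 to 8.05), 6.09 of Ccnb2 (2.58 to 3.11), 5.18 of Aurkb (1.74 to 1.98) and 14.3 of Kif20a (5.92 to 7.27), and its replication sum was 349 CPM (231 to 246). M504 was also the 1 unstranded metatarsal and of run 1, and the part of either was not tested.

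H53 stood apart in hip caps at 5 MPa in Ccnb1 (14.4 CPM, the others 3.39 to 5.13) and Plk1 (14.1 CPM, 3.66 to 5.27). M52 had 17.7 CPM of E2f1 (10.6 to 11.4), MC2 had 1.66 CPM of Bub1 (3.25 to 3.47), and M53 had 9.60 CPM of Kif23 (8.31 to 8.38).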

How the results depend on the processing

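The counts of the 40 genes past the threshold were 4 between the controls, 18 between the tissues at 5 MPa, 1 at 50 MPa and 0 for each pressure comparison. Most counts that follow come without the share of all genes under the same setting, so they are not read as results about these genes. Between the controls the count was 7 with library sizes alone, 2 with no filter on low counts, 7 with all 24 libraries, 7 with no batch terms, 0 with controls of run 1 and 1 with stranded libraries. At 5 MPa it was 2 with library sizes alone. At 50 MPa it was 5 with library sizes alone, 3 with no batch terms, and 0 with no filter, all 24 libraries, the GC trend removed or run 1 alone. For hip caps at 5 MPa against controls it was 1 with DESeq2, no filter, no batch terms, library type only or the replicate block, and at 50 MPa 1 with DESeq2, sequencing run only or the replicate block. Fits without 1 library gave 1 (without MC1) to 6 between the controls, 10 (without H53) to 29 (without H54) at 5 MPa, 0 (without M504) to 1 at 50 MPa, 0 to 4 (without HC2) for hip caps at 5 MPa, 0 to 1 at 50 MPa, 0 to 0 in metatarsals, and 0 to 1 and 0 to 0 for the interactions at 5 and 50 MPa. Between the controls, library sizes alone turned the sign of Mcm6 (-0.27), Cdkn1b (-0.90), Rpa2 (-0.21), Dut (-0.01), Rbl1 (-0.11) and Ccnd1 (-0.09), with a median over all genes of -0.97. The cause was not tested for the other changes. Residuals of same-numbered libraries had correlations of -0.18 to 0.29, so pairing by replicate number was not shown. A shared litter or day cannot be judged from these values. With the replicate block 0 of the 40 were higher and 3 lower between the controls, and 17 higher and 1 lower at 5 MPa.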
